A study of Mus musculus with 8 samples.

Results

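Secretion of a vesicle's cargo ends with the fusion of the vesicle with the plasma membrane. The transcripts of 38 genes for the tethering and fusion of vesicles were followed in mouse molars. Some of them, such as Stx6, Stx7 and Stx12, act at the trans-Golgi network or endosomes. The genes are 6 VAMPs, 3 SNAPs, 7 syntaxins, 2 syntaxin-binding proteins, 4 synaptotagmins, 8 exocyst subunits, 4 genes of the Rims and Unc13 families and 4 synaptotagmin-like genes. They were taken by gene symbol from a deposited table of 54532 genes. Each symbol matched 1 row. Of the 38, 37 had enough reads to be tested, among 16205 tested genes in all. Sytl5 was left out, with 0 or 1 read in each of the 4 wild-type libraries and 0 to 2 reads in each of the 4 knockout libraries.

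RNA was sequenced from first molars of C57BL/6 mouse pups that were wild type (WT 2, 3, 4 and 5) or lacked Wdr72 (Wdr72-/-, a purchased colony; KO 1, 3, 4 and 5), numbered as in the labels. WDR72 is a WD40-repeat protein, and loss of it is known to cause enamel that fails to harden fully. The labelled age is P12, postnatal day 12, while the dissection protocol names P13. The pulp was taken out and the rest of the molar was homogenised, and the labels call the material enamel organ cells and ameloblasts. No treatment is named. The labels do not say what the knockout allele deletes, and they leave unsaid if pups were pooled for a library, so p-values refer to the spread among these 8 libraries, which may be technical.

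Membrane fusion is driven by SNARE proteins: a VAMP on the vesicle pairs with a syntaxin and a SNAP on the target membrane. Syntaxin-binding proteins of the Sec1/Munc18 family escort the syntaxins, the exocyst tethers a vesicle before fusion, Rims and Unc13 proteins prime it, and synaptotagmins make fusion respond to calcium. Synaptotagmin-like proteins bind Rab27 and hold vesicles at the plasma membrane. Ameloblasts secrete enamel matrix proteins by exocytosis and, later, during maturation, secrete proteases and move ions and matrix fragments across a membrane that cycles between ruffled and smooth forms.

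The unit of level is CPM, the reads of a gene as a part per 1e6 of the library's total after TMM scaling, a factor that evens out differences in library composition. Values of WT are listed in the order WT 2, 3, 4 and 5, and those of KO in the order KO 1, 3, 4 and 5. Means carry the SD over 4 libraries. Log2 fold changes are KO minus WT with their SE, tested by edgeR's quasi-likelihood test, two-sided, with Benjamini-Hochberg adjustment over all 16205 genes and a threshold of 0.05 for the adjusted p.

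Wdr72 itself, on chromosome 9 from 74110356 to 74283308 (GRCm38), was at 173, 245, 327 and 227 CPM in WT and at 102, 37.8, 24.9 and 15.8 CPM in KO. The groups did not overlap, and the KO mean was 18.5% of the WT mean. Its log2 fold change of -2.43 ± 0.47 (SE) did not pass the threshold by edgeR (adjusted p = 0.080), but passed by DESeq2 (-2.44, adjusted p = 0.00553) and without KO 1 (-3.21, adjusted p = 0.0116). Over all alternatives its adjusted p was 0.00354 to 0.311.

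The libraries held 17084475 to 21887462 reads. KO 5 stood apart: its mean correlation with the other libraries over all tested genes was 0.964, against 0.980 to 0.983 for the rest. The 8 ameloblast markers summed to 53400 to 97700 CPM in WT and to 59720 to 81170 CPM in KO, so the labelled cell type was present in every library. The 8 odontoblast and bone markers summed to 29150 to 57080 CPM in WT and to 32270 to 59500 CPM in KO. The 10 oral keratinocyte markers summed to 709 to 1342 CPM in WT and 572 to 828 CPM in KO. All 10 had estimates below 0 (median -0.98). At an unadjusted p under 0.05 by edgeR there were 8 (15.7% of all genes), and 5 had no overlap between groups (10.9% of all genes). Of them Krt1, a keratin of cornifying epithelium, passed the threshold (9.96 ± 6.02 CPM in WT, 1.598 ± 0.232 in KO, log2 fold change -2.64 ± 0.36, adjusted p = 0.0396). The part of this difference in the members' values was not tested. Nerve markers summed to 68.4 to 81.5 CPM in WT and to 91.7 to 145 CPM in KO, without overlap. Schwann cell markers summed to 156 to 179 CPM and 177 to 225 CPM, leukocyte markers to 172 to 220 CPM and 212 to 279 CPM, and skeletal muscle markers to 62.3 to 112 CPM and 56.0 to 113 CPM. In such tissue RNA, fewer cells of a type and less RNA per cell cannot be told apart.

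The secretion machinery was close in level in WT and KO. None of the 37 tested members passed the threshold by edgeR, where 5 genes of the whole table did (0.0309% of those tested). At an unadjusted p under 0.05 there were 3 members, or 8.11%, against 15.7% of all genes: Stx3 had a lower mean in KO (6.98% of all genes), and Syt7 and Exoc7 had a higher one (8.7% of all genes). The lowest adjusted p was 0.225. DESeq2 placed 0 members past the threshold (2.87% of all genes were past it) and 6 at an unadjusted p under 0.05 (17% of all genes). The limma voom fit with quality weights placed 1 member past it, Stx3, where 6.62% of all genes were past it, and 10 at an unadjusted p under 0.05 (24.3% of all genes). The estimates ran from -0.39 for Stx3 to 0.44 for Syt7, with a median of -0.045 beside 0.021 over all tested genes. The median size of the difference, whatever its sign, was 0.191 for the members and 0.194 for all genes. A p above the threshold does not show that levels were the same.

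**Figure D1:**
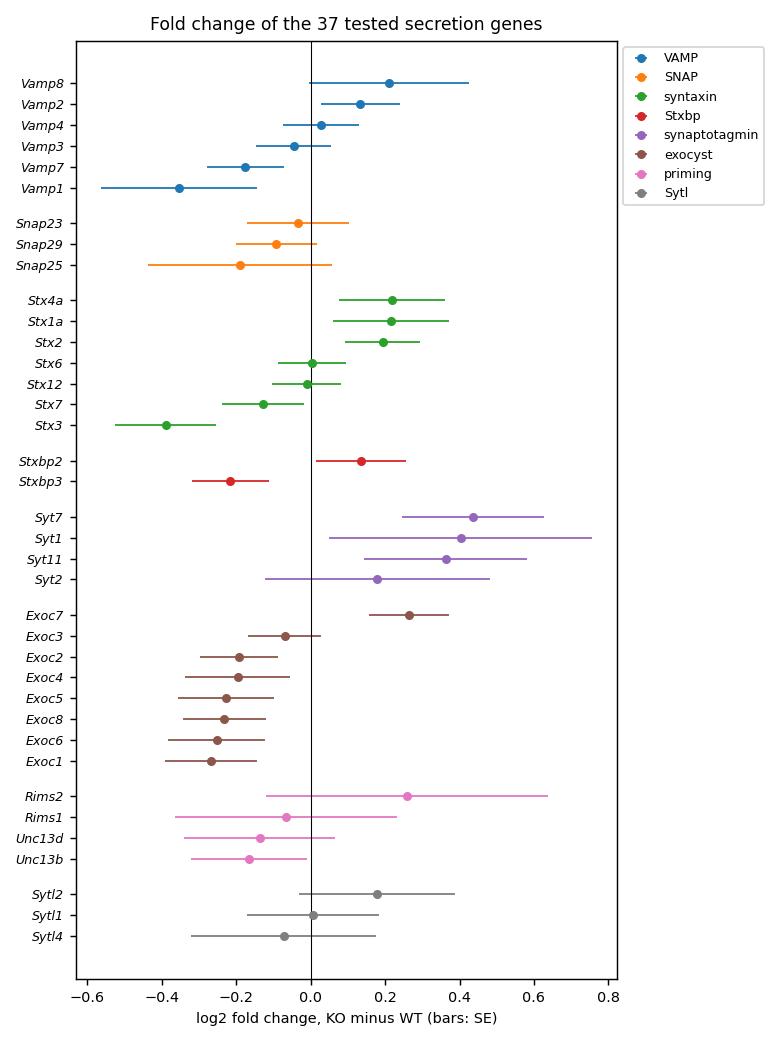
Log2 fold change (KO minus WT) of the 37 tested secretion genes, grouped by family and ordered within it; points are edgeR estimates from 4 WT and 4 KO libraries and bars are SE. All 37 estimates lie between -0.39 (Stx3) and 0.44 (Syt7), 7 of the 8 exocyst subunits lie below 0, and the 4 synaptotagmins lie above 0.

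The 4 KO values lay wholly above or below the 4 WT values in 6 of the 37 members, or 16.2%, against 10.9% of all genes tested. In Syt7 and Stx2 the KO values were all higher (5.5% of all genes), and in Stxbp3, Exoc1, Exoc2 and Exoc8 they were all lower (5.44% of all genes). After a correction of each library for GC content, 1 member had all its KO values above those of WT (3.78% of all genes) and 1 had them all below (4.12%). After a joint correction for GC content and gene length the numbers were 0 (4.17% of all genes) and 1 (4.83%).

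The vesicle SNAREs were led by Vamp8 and Vamp3. Vamp8, the endobrevin known from regulated secretion in exocrine and blood cells, lies on chromosome 6 from 72385223 to 72390703. It was at 105, 132, 129 and 110 CPM in WT and at 126, 96.8, 113 and 216 CPM in KO. KO 5 was the highest library and KO 3 the lowest, so that the groups overlapped. Group means were 119 ± 13.4 and 138 ± 53.4 CPM, with a log2 fold change of 0.21 ± 0.22 (adjusted p = 0.64). Without KO 5 the estimate was -0.090.

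Scaled to gene length, the VAMPs stood in the same order in both groups. WT means were 51.5 CPM per kb for Vamp8, 41.1 for Vamp3, the cellubrevin of constitutive and recycling vesicles, and 23.2 for Vamp2, the synaptobrevin of synapses that many other secretory cells also use. The lower 3 were Vamp7 at 14.8, Vamp4 at 10.2 and Vamp1 at 1.54 CPM per kb in WT. In KO the 6 means were 59.7, 39.8, 25.4, 13.1, 10.4 and 1.21 CPM per kb. Per length, Vamp8 was above Vamp3 in every library of both groups, and the SD of Vamp8 in KO was 23.1 CPM per kb. Vamp8 made up 36.1% ± 2.69 of the family's summed CPM per kb in WT and 38.9% ± 7.65 in KO (exact permutation test over the 70 arrangements of the libraries, two-sided, p = 0.714, adjusted p = 0.943 over 8 families).

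Of the remaining VAMPs, Vamp2 averaged 88.3 ± 3.36 CPM in WT and 96.9 ± 10.7 CPM in KO, and KO 1 held the highest value at 113 CPM. Vamp7, which serves lysosome-related and apical fusion, was at 37.4 ± 3.23 and 33.2 ± 1.43 CPM. Vamp1 was at 16.3, 16.5, 14.3 and 15.6 CPM in WT and at 14.8, 14.8, 12.8 and 6.71 CPM in KO. KO 5 was the lowest of all 8 libraries for Vamp1. In the family 3 estimates were above 0 and 3 below it, with a median of -0.0087, and none reached an unadjusted p of 0.05. Tapbpl, whose span overlaps that of Vamp1 on the opposite strand, had 113% as many reads as Vamp1, and the strand setting of the counting is not given in the sources used here.

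**Figure D2:**
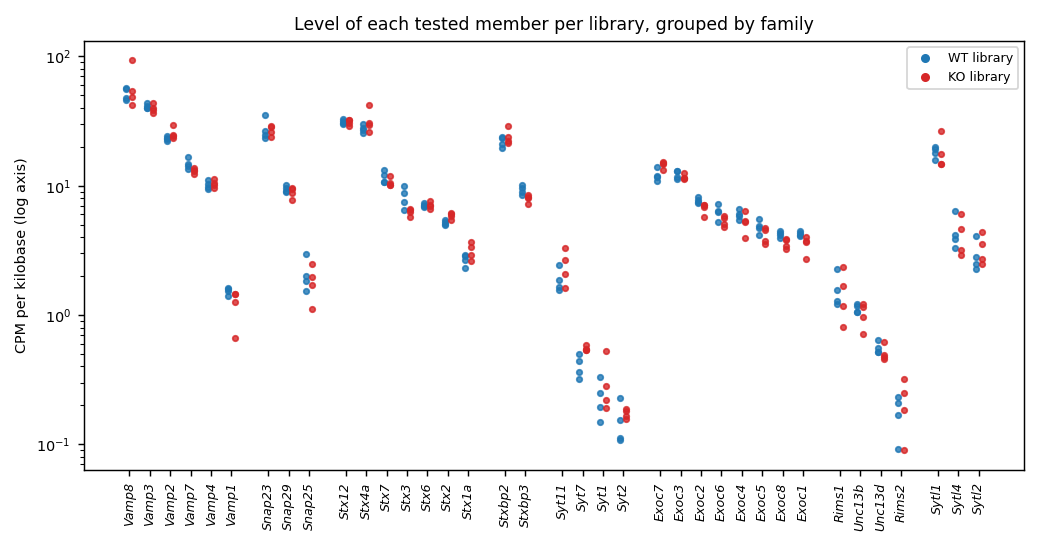
Level of each tested member in CPM per kilobase of gene length (log axis), grouped by family and ordered by its mean within the family; each point is 1 library, WT in blue and KO in red. Vamp8, Vamp3, Stx12, Stx4a, Snap23, Vamp2 and Stxbp2 form the top of the set, above 20 CPM per kb in the WT mean, and Syt7, Syt1, Rims2 and Syt2 its floor, below 0.5 CPM per kb in the WT mean.

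Among the SNAPs, the non-neuronal Snap23 stood far above the neuronal Snap25. Snap23 was at 101, 113, 151 and 106 CPM in WT and at 112, 123, 122 and 102 CPM in KO. WT 4 was the highest and WT 2 the lowest library, so all KO values lay inside the WT range. KO minus WT gave a log2 fold change of -0.034 ± 0.14 (adjusted p = 0.92). Per length, WT means were 27.4 CPM per kb for Snap23, 9.45 for Snap29 and 2.08 for Snap25, and KO means were 26.8, 8.86 and 1.82 CPM per kb. These 3 levels lay further apart than their spread in both groups. Snap23 held 70.2% ± 2.07 of the family's CPM per kb in WT and 71.4% ± 1.53 in KO (exact permutation p = 0.314, adjusted p = 0.838).

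Snap25 was at 10.5, 12.4, 20.1 and 13.5 CPM in WT and at 13.5, 16.9, 11.5 and 7.59 CPM in KO, again highest in WT 4, and KO 5 was the lowest. Snap29, a broadly used SNAP, was at 32.6 ± 1.94 and 30.5 ± 2.91 CPM. Exons of Snap29 overlap those of Pi4ka on the opposite strand, which had 190% as many reads, so the value of Snap29 is uncertain. All 3 estimates were below 0, with a median of -0.092, and none reached an unadjusted p of 0.05. After the GC correction Snap23 was at 0.085 and Snap29 at 0.017 on the log2 scale, so the shared sign was lost.

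Stx3, the syntaxin of the apical plasma membrane in polarised epithelia, had the lowest p of all members. It lies on chromosome 19 from 11775118 to 11819403 and was at 57.0, 50.2, 36.98 and 43.1 CPM in WT and at 32.4, 35.6, 37.6 and 37.2 CPM in KO. WT 4 was below KO 4 and KO 5, and the other 3 WT libraries were above every KO library. Means were 46.8 ± 8.66 and 35.7 ± 2.35 CPM, with a log2 fold change of -0.39 ± 0.14 (unadjusted p = 0.0141, adjusted p = 0.225). It passed with voom and quality weights (-0.45, adjusted p = 0.0359), where 6.62% of all genes passed. Over the remaining alternatives the adjusted p was 0.117 to 0.792, and the sign was negative in all of them.

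Stx4a, the syntaxin of the basolateral membrane in many epithelia, was at 65.8, 70.8, 63.4 and 60.9 CPM in WT and at 72.03, 61.6, 69.9 and 100 CPM in KO. KO 5 was the highest library, and the other 3 KO values lay within or just above the WT range. This gave a log2 fold change of 0.22 ± 0.14 (adjusted p = 0.46).

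Stx12, an endosomal syntaxin, had the highest WT mean of its family per length and differed little between libraries. It was at 95.6, 98.3, 104 and 101 CPM in WT and at 102, 98.2, 102 and 93.1 CPM in KO, and the groups overlapped throughout. KO minus WT came to -0.011 ± 0.093 on the log2 scale (adjusted p = 0.96). Its part of the family's CPM per kb was 33.5% ± 2.26 in WT and 32.5% ± 3.33 in KO (exact permutation p = 0.686, adjusted p = 0.943).

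Stx2, also called epimorphin, was at 23.1, 23.9, 22.6 and 25.1 CPM in WT and at 26.9, 25.1, 27.9 and 28.3 CPM in KO. WT 5 and KO 3 lay side by side, with KO 3 higher by the next digit, and scaling by DESeq2's size factors made the groups overlap. Its log2 fold change was 0.19 ± 0.10 (adjusted p = 0.36). Per length, the WT means of the syntaxins were 31.3 CPM per kb for Stx12, 27.6 for Stx4a, 11.6 for Stx7 of late endosomes, 8.19 for Stx3, 7.07 for Stx6 of the trans-Golgi network, 5.16 for Stx2 and 2.69 for the neuronal Stx1a. In KO they were 31.0, 32.1, 10.6, 6.25, 7.09, 5.90 and 3.13 CPM per kb. Stx12 and Stx4a stood above the rest in both groups, and the neighbours Stx3 and Stx6 did not differ beyond their spread in WT. The family's median log2 fold change was 0.0036, with 4 estimates above 0 and 3 below.

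The means of the syntaxin-binding proteins differed in opposite directions, and neither difference passed the threshold. Stxbp3 (Munc18c), a partner of Stx4a, was at 54.5, 50.8, 45.4 and 47.7 CPM in WT and at 38.7, 43.8, 43.1 and 45.3 CPM in KO. Every KO value was below every WT value, with WT 4 and KO 5 next to each other. Its log2 fold change was -0.22 ± 0.10 (adjusted p = 0.33), and it was -0.055 after the GC correction.

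Stxbp2 (Munc18-2), a partner of Stx3 in epithelia, was at 87.3, 99.1, 96.9 and 81.7 CPM in WT and at 99.6, 92.9, 88.7 and 120 CPM in KO. KO 5 was the highest library and the groups overlapped. Stxbp2 had a log2 fold change of 0.14 ± 0.12 (adjusted p = 0.58). Per length, Stxbp2 was above Stxbp3 in every library. It took 70.2% ± 2.67 of the pair's CPM per kb in WT and 74.9% ± 2.44 in KO, a difference of 4.75 percentage points (exact permutation p = 0.0857, adjusted p = 0.343).

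**Figure D3:**
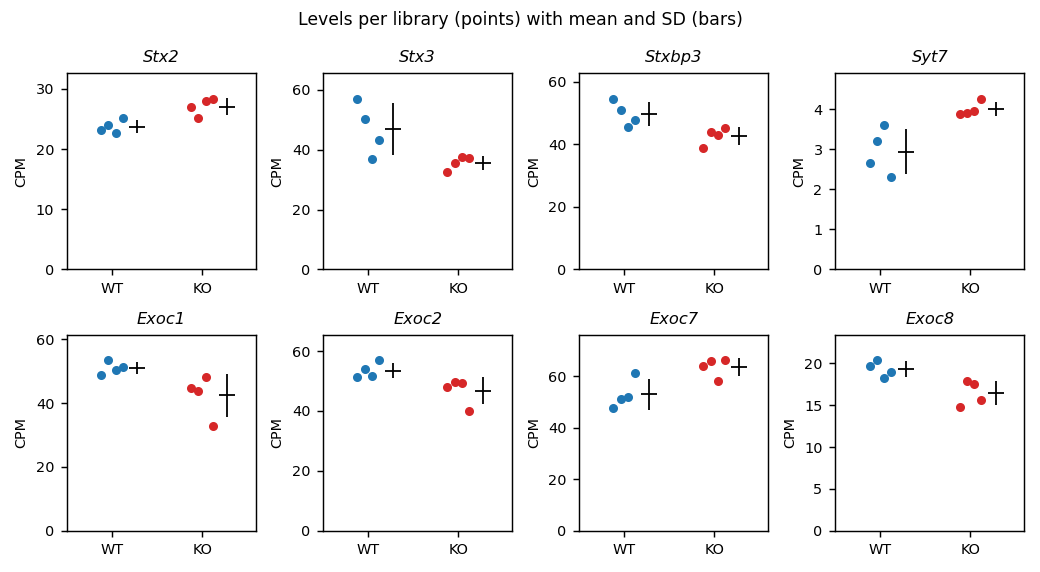
CPM in each library for the 8 members that reached an unadjusted p under 0.05 or whose groups do not overlap; points are the 4 WT (blue) and 4 KO (red) libraries, and the bar beside each group is its mean with SD. In Stx3 and Exoc7 the groups overlap by single libraries, and in the other 6 they do not, with gaps that are narrow in Stx2 and Stxbp3.

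The 4 synaptotagmins all had estimates above 0, with a median of 0.38, and none passed the threshold. Their levels were low. Syt7, the high-affinity calcium sensor of slow and lysosomal exocytosis, lies on chromosome 19 from 10389090 to 10453181. It was at 2.66, 3.20, 3.61 and 2.32 CPM in WT and at 3.88, 3.90, 3.96 and 4.26 CPM in KO. Every KO library was above every WT library, and the KO values were tightly grouped. Means were 2.95 ± 0.572 and 4.002 ± 0.178 CPM, with a log2 fold change of 0.44 ± 0.19 (unadjusted p = 0.0418, adjusted p = 0.302). After the GC correction it was 0.24.

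Syt11, a synaptotagmin that does not bind calcium, led the family per length. It was at 8.19, 8.64, 9.68 and 12.7 CPM in WT and at 8.42, 17.2, 13.9 and 10.7 CPM in KO. KO 3 and KO 4 were the highest libraries, while KO 1 was below 3 of the WT libraries. The log2 fold change was 0.36 ± 0.22 (adjusted p = 0.43). Syt11 held 70.1% ± 6.56 of the family's CPM per kb in WT and 69.4% ± 4.50 in KO (exact permutation p = 0.886, adjusted p = 0.943).

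Syt1, the fast calcium sensor of synapses, was at 2.77, 1.62, 2.09 and 1.24 CPM in WT and at 1.59, 4.41, 1.84 and 2.34 CPM in KO. KO 3 alone exceeded the highest WT library. The log2 fold change was 0.40 ± 0.35 (adjusted p = 0.58), and without KO 3 it was -0.012. Without KO 3 the family's median was 0.15. Syt2 was at 1.16 ± 0.430 and 1.31 ± 0.105 CPM. Its span overlaps that of Ppp1r12b on the opposite strand, a gene with many times its reads, so the value of Syt2 is uncertain.

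Per length, the WT means were 1.88 CPM per kb for Syt11, 0.405 for Syt7, 0.232 for Syt1 and 0.152 for Syt2, and the KO means 2.42, 0.550, 0.305 and 0.172 CPM per kb. Markers of nerve and Schwann cells had mostly higher values in KO too. All 8 Schwann cell markers had estimates above 0, with 5 at an unadjusted p under 0.05 by edgeR (62.5%, against 15.7% of all genes). Of 9 tested nerve markers 6 did, with 4 at that level (44.4%), while Scn9a had too few reads to be tested. The other 3 were the neurofilament genes Nefl (-0.33), Nefm (-1.19) and Nefh (-0.47), all low, at 1.35, 2.04 and 0.852 CPM in the WT means. Tubb3, the neuronal tubulin and the first nerve marker in the list, was at 29.9 to 38.1 CPM across the WT libraries and at 45.2 to 61.9 CPM across the KO libraries. The part of nerve RNA in the synaptotagmin values was not tested.

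The exocyst is a complex of 8 subunits, and 7 of them had estimates below 0, or 87.5%, against 46.9% of all genes tested. The median was -0.21. The one exception was Exoc7, the subunit that binds phosphoinositides of the plasma membrane, on chromosome 11 from 116288001 to 116307233. Exoc7 was at 47.5, 51.1, 51.9 and 61.3 CPM in WT and at 63.9, 65.8, 58.2 and 66.2 CPM in KO. Only WT 5 and KO 4 crossed over. Means were 52.9 ± 5.92 and 63.5 ± 3.66 CPM, with a log2 fold change of 0.26 ± 0.11 (unadjusted p = 0.0310, adjusted p = 0.280).

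Exoc1, which like Exoc7 contacts the plasma membrane, was at 48.9, 53.5, 50.4 and 51.4 CPM in WT and at 44.8, 44.0, 48.2 and 32.8 CPM in KO. All KO values were below those of WT, and KO 5 was much the lowest. The log2 fold change was -0.27 ± 0.12 (adjusted p = 0.32), and it was -0.16 without KO 5.

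Exoc2, a target of Ral GTPases, was at 51.3, 54.0, 51.7 and 57.0 CPM in WT and at 48.0, 49.7, 49.5 and 40.0 CPM in KO, with a log2 fold change of -0.19 ± 0.10 (adjusted p = 0.38). Exoc8, the other Ral-binding subunit, was at 19.7, 20.4, 18.3 and 19.0 CPM in WT and at 14.8, 17.9, 17.5 and 15.6 CPM in KO, with -0.23 ± 0.11 (adjusted p = 0.33). In both genes the groups were separate by a small gap. KO 5 was the lowest library for Exoc2 and KO 1 for Exoc8.

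The other exocyst subunits overlapped between the groups. Log2 fold changes were -0.070 for Exoc3, -0.20 for Exoc4, -0.23 for Exoc5 and -0.25 for Exoc6, the subunit that binds Rab proteins on the vesicle. Exons of Exoc5 overlap those of Ap5m1, which had 32.6% as many reads. The exocyst median depended on how libraries were corrected: it was -0.065 after the GC correction, -0.029 after the GC and length correction, and -0.090 without KO 1 and KO 5. Exoc5 was at 0.050 and 0.19 under these 2 corrections.

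Per length, the subunits were not equal in level, and their order depended on that scaling. By CPM alone Exoc5 had the highest WT mean, at 86.9 ± 10.4 CPM, but its length of 17988 bp placed it lower per kb. WT means were 12.3 CPM per kb for Exoc3, 12.1 for Exoc7, 7.68 for Exoc2, 6.32 for Exoc6, 5.99 for Exoc4, 4.83 for Exoc5, 4.24 for Exoc1 and 4.203 for Exoc8. Exoc3 and Exoc7 did not differ beyond their spread in WT, nor did Exoc6 and Exoc4, or Exoc1 and Exoc8. In KO the same means were 11.7, 14.5, 6.72, 5.30, 5.23, 4.13, 3.52 and 3.58 CPM per kb. Exoc7 was above Exoc3 in the KO means. Exoc7 held 21.0% ± 2.16 of the summed exocyst CPM per kb in WT (19.8% to 24.3%) and 26.7% ± 2.45 in KO (24.2% to 29.8%). The difference of 5.65 percentage points had an exact permutation p of 0.0571 and an adjusted p of 0.343 over the 8 families, where the smallest p that 4 against 4 libraries can give is 0.0286.

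The priming factors showed a wide spread within both groups. Rims1, a Rab3 effector of the active zone, was at 9.02, 9.50, 11.4 and 16.7 CPM in WT and at 8.59, 12.4, 17.4 and 5.98 CPM in KO. KO 4 and WT 5 were the highest libraries and KO 5 the lowest, so each group spanned most of the range. The log2 fold change was -0.066 ± 0.30 (adjusted p = 0.93), and without KO 5 it was 0.16.

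Unc13b (Munc13-2) was at 25.7 ± 1.93 and 22.9 ± 5.06 CPM, Unc13d (Munc13-4), which serves granule release in blood cells, at 2.62 ± 0.274 and 2.38 ± 0.350 CPM, and Rims2 at 1.83 ± 0.637 and 2.18 ± 1.01 CPM. WT means per length were 1.59 CPM per kb for Rims1, 1.13 for Unc13b, 0.559 for Unc13d and 0.176 for Rims2. KO means were 1.51, 1.01, 0.509 and 0.210 CPM per kb. Per length, Rims1 was above Unc13b in every library, but only narrowly in WT 2 (38.7% against 37.2% of the group's CPM per kb). Without division by length Unc13b was above Rims1, at 25.7 against 11.7 CPM in the WT means. Rims1 took 45.2% ± 7.41 of the group's CPM per kb in WT and 45.1% ± 7.37 in KO (exact permutation p = 0.943, adjusted p = 0.943). Estimates were below 0 in 3 of the 4 genes, with a median of -0.10, and the median was 0.054 without KO 5 and 0.21 without KO 1 and KO 5.

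Of the synaptotagmin-like genes, Sytl1 was the most abundant per length. It was at 48.2, 50.4, 39.6 and 45.3 CPM in WT and at 44.1, 36.98, 37.1 and 66.2 CPM in KO. KO 5 was the highest library, and KO 3 and KO 4 were the lowest. The log2 fold change was 0.0062 ± 0.18 (adjusted p = 0.99), and without KO 5 it was -0.22. Its share of the family's CPM per kb was 71.5% ± 6.42 and 70.1% ± 10.9 (exact permutation p = 0.83, adjusted p = 0.943).

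Sytl2 was at 34.4, 31.6, 39.0 and 56.6 CPM in WT and at 37.5, 49.6, 61.0 and 34.6 CPM in KO. Sytl4 (granuphilin), an effector known from insulin granules, was at 16.998, 19.8, 21.2 and 32.6 CPM in WT and at 16.2, 23.5, 31.2 and 14.97 CPM in KO. In both genes WT 5 and KO 4 were the highest libraries and the groups overlapped widely. The log2 fold changes were 0.18 ± 0.21 (adjusted p = 0.69) for Sytl2 and -0.073 ± 0.25 (adjusted p = 0.90) for Sytl4. WT means per length were 18.2 CPM per kb for Sytl1, 4.42 for Sytl4 and 2.90 for Sytl2, and KO means were 18.3, 4.19 and 3.28 CPM per kb. Sytl4 and Sytl5 are on the X chromosome. Xist, the RNA of the inactive X, averaged 637 ± 269 CPM over WT libraries and 243 ± 81.4 over KO libraries, and its relation to Sytl4 was not tested.

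KO 5 differed from the other libraries in a way that followed gene length among the members. It was the highest of the 8 libraries for 8 members and the lowest for 12. Relative to the mean of KO 1, 3 and 4, KO 5 had 1.93 times the CPM of Vamp8, 1.68 times that of Sytl1, 1.47 times that of Stx4a and 1.28 times that of Stxbp2. At the other end it had 0.360 times the CPM of Rims2, 0.467 of Rims1, 0.475 of Vamp1, 0.544 of Snap25 and 0.634 of Sytl4. The deviation of KO 5 from the mean of the other libraries had a Spearman correlation with gene length of -0.605 over the 37 members and of -0.442 over all genes tested. In KO 3 these were 0.648 and 0.354. The deviation of each library was also correlated with GC content over the tested genes. These correlations were -0.208, -0.159, -0.419 and -0.221 in WT and 0.295, -0.0649, 0.0205 and 0.381 in KO, without overlap between the groups. The part of GC content in the members' differences was not tested beyond the GC correction. Members of a library share its depth and its RNA, so these correlations are descriptions across genes.

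**Figure D4:**
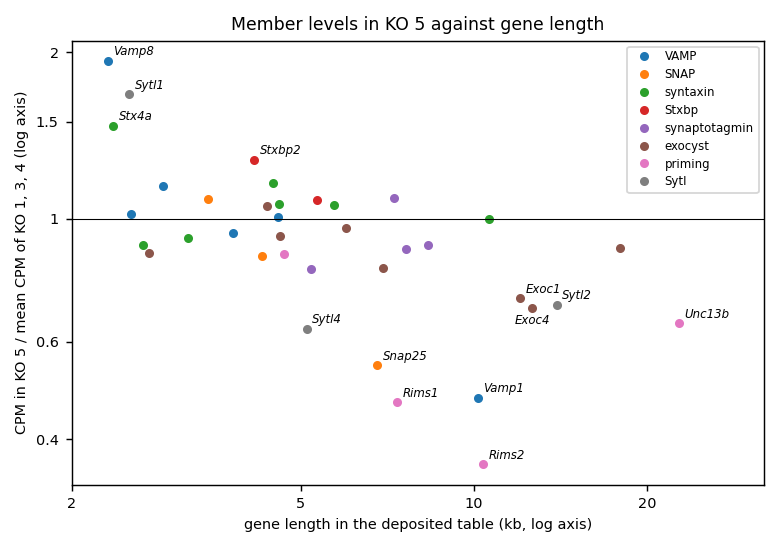
CPM of each tested member in KO 5 divided by its mean CPM in KO 1, 3 and 4 (log axis), against gene length in the deposited table in kb (log axis); each point is 1 gene, coloured by family, and the line marks equal levels. Some short genes, such as Vamp8 (1.93) and Sytl1 (1.68), lie above the line, while others, such as Exoc6 (0.868) and Stx1a (0.898), lie below it. Among long genes Rims2 (0.360) and Vamp1 (0.475) lie below the line and Stx6 (1.002) lies on it. KO 3, whose own deviation rose with gene length, is part of the divisor.

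Member levels were also set against the first gene of each of 7 marker lists across the 8 libraries, 259 relations in all, a choice made after values had been seen. Pearson correlations of 2 members with Dspp, which encodes a dentin matrix protein of odontoblasts, passed an adjusted p of 0.05. Dspp was at 10525, 10381, 12591 and 21242 CPM in WT and at 11005, 14270, 18225 and 8710 CPM in KO. WT 5 and KO 4 were the highest libraries and KO 5 the lowest, as they were for Rims1 and Sytl4.

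For Sytl4, r was 0.967 (exact permutation p = 0.000248, adjusted p = 0.045) and Spearman's rho 0.905 (exact p = 0.00456, adjusted p = 0.234), and r was 0.880 without the 2 libraries farthest from the median of Dspp. For Rims1, r was 0.959 (exact permutation p = 0.000347, adjusted p = 0.045), rho 0.881 (exact p = 0.00724, adjusted p = 0.234), and r without those 2 libraries 0.946. For Sytl2, r was 0.932 (exact permutation p = 0.00131, adjusted p = 0.0666), which did not pass. After each genotype's mean was subtracted, r was 0.968 for Sytl4, 0.962 for Rims1 and 0.988 for Sytl2. None of the 259 rank correlations passed, and 4 libraries per genotype are too few for a correlation within each. The part of odontoblast RNA in the levels of these genes was not tested.

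**Figure D5:**
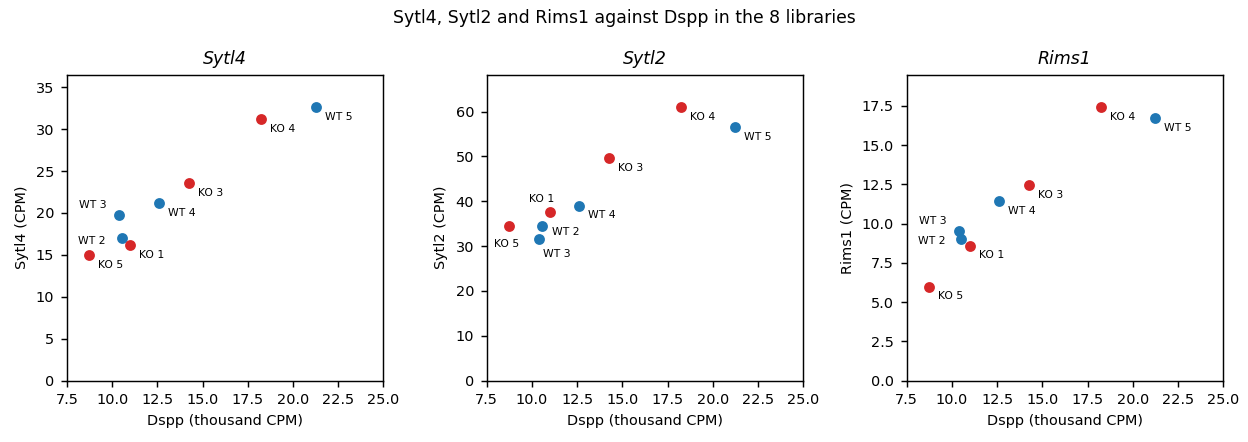
Sytl4, Sytl2 and Rims1 (CPM) against Dspp (CPM in units of 1e3); each point is 1 library, WT in blue and KO in red, labelled with its number. In all panels WT 5 and KO 4, the libraries with the highest Dspp, lie at the top, and libraries of both genotypes lie along the same line.

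The nearest other relations were those of Stx2 with Krt1 (r = -0.911, exact permutation p adjusted to 0.0578), and of Syt7 with Tubb3 (r = 0.903, adjusted to 0.0666). Neither passed. In all 4 genes the groups did not overlap, and after each genotype's mean was subtracted r was -0.656 and 0.709.

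Other genes of the same machinery did not pass the threshold by edgeR either. Of 19 tested SNAREs of the Golgi, endosomes and endoplasmic reticulum (of 20), 14 had estimates above 0 and 5 below, with a median of 0.080. Stx18 (0.46, adjusted p = 0.27) and Bnip1 (0.30, adjusted p = 0.29), which act in the endoplasmic reticulum, reached an unadjusted p under 0.05 by edgeR, and none passed the threshold. Of 15 genes for SNARE recycling and Sec1/Munc18 proteins, 7 were above 0 and 8 below, with a median of -0.0031, and none reached an unadjusted p under 0.05. Napa, the alpha-SNAP that recycles SNARE complexes with NSF, was at 0.25 (adjusted p = 0.40), and its brain paralog Napb at -0.31 (adjusted p = 0.49).

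Of 25 tested further calcium sensors, priming factors and tethers (of 28), 16 were above 0 and 9 below, with a median of 0.18. Whatever its sign, the median size of the difference was 0.319 here, against 0.194 for all genes and 0.104 to 0.189 in the other further lists. In this list 5 genes reached an unadjusted p under 0.05 by edgeR, all with higher means in KO, or 20% beside 15.7% of all genes. Rims4 was at 1.07 (adjusted p = 0.21), Unc13c at 0.94 (adjusted p = 0.27) and Cadps2, a priming factor of dense-core granules, at 0.34 (adjusted p = 0.28). Rims4 and Unc13c were low, at 0.591 ± 0.136 and 0.497 ± 0.237 CPM in WT. Unc13c, on chromosome 9 from 73479422 to 73968966, lies close to the targeted Wdr72, and the part of that position in its values was not tested. With voom and quality weights Unc13c (adjusted p = 0.0353) and Cadps2 (adjusted p = 0.0461) passed the threshold.

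Of 16 tested Rab GTPases of secretory vesicles and their effectors (of 18), 10 were above 0 and 6 below, with a median of 0.078. Rab11b, of recycling endosomes, averaged 121 ± 4.83 CPM in WT and 147 ± 12.8 in KO (0.28, adjusted p = 0.25), with no overlap between the groups. Rab27a, which recruits the synaptotagmin-like proteins and also lies near Wdr72 (chromosome 9, 73044854 to 73097629), was at -0.29 (unadjusted p = 0.0892), and Rab3b at 0.68 (unadjusted p = 0.0942), both by edgeR. No gene of these 4 lists passed the threshold by edgeR or DESeq2.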

How the data were processed

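The authors deposited 1 table of raw counts, whole numbers of reads per Ensembl gene and library, with gene lengths and coordinates. RNA was captured by polyA, per the labels' protocols. CASAVA and mm39 are named in the submitters' processing notes, but 98.8% of the 54409 gene IDs shared with GENCODE M21 had its GRCm38 start, so coordinates are given on GRCm38. Not given in the sources used here are the aligner, the counter and its strand setting. Lengths were those of the table, and for 35 of the 38 members they equalled the merged exons of all annotated transcripts. The transcripts present may be shorter, so the order of genes per length is approximate. Vamp7 lies on an unplaced scaffold there.

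Genes were filtered with filterByExpr (minimum count 10, minimum total 15) and scaled by TMM (factors 0.936 to 1.06), and the 2 genotypes were tested against each other with edgeR 4.0.16 (quasi-likelihood test, robust; limma 3.58.1, R 4.3.3) over all 8 libraries with no covariate. SE is the absolute log2 fold change over the root of its F statistic. The biological coefficient of variation was 17.8%. Alternatives were other scalings, DESeq2 1.42.0, voom, other filters, a replicate block, a GC correction, libraries left out and, added after the data were seen, a GC and length correction. Same-group libraries differed by far more than counting noise (chi-square per gene 15.3 to 92.1). Library values are given for Wdr72, each family's leading member per length, members at an unadjusted p under 0.05 and members whose groups do not overlap, and up to 3 genes per further list are named by smallest p. Library values of other members, and the genes named for KO 5, were picked once their values had been seen. The members and lists were chosen with earlier results of these data known.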

Additional observations from a re-analysis of the deposited data

Results flagged for a closer look

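Among 92 groups of 4 values (CPM of each member and each leading member's share, in WT and in KO), 3 held a value far from the other 3, where chance gives about 1 in 20. Exoc3 was at 75.9 CPM in KO 3, against 67.6 to 69.0 CPM in the other KO libraries. The share of Stx12 in the syntaxins' CPM per kb was 27.5% in KO 5, against 33.7% to 34.9% in the other KO libraries. The share of Exoc7 in the exocyst's CPM per kb was 24.3% in WT 5, against 19.8% to 20.03% in the other WT libraries, and without WT 5 the difference between KO and WT was 6.73 percentage points.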

How the results depend on the processing

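Of 1174 recomputed values, 1045 were counted as unchanged. For genes and shares this meant the same sign and side of the threshold, and for counts a value close to the main one. Medians near 0 could change sign and still count as unchanged, as that of the syntaxins did (-0.045 to 0.059). Of the 37 members, 20 kept the sign of their log2 fold change under all 19 alternatives. Signs turned mostly where the estimate was near 0. With DESeq2's size factors Stx6 was at -0.0086 and Sytl1 at -0.0072, 6 members reached an unadjusted p under 0.05 and 1 lay wholly higher in KO. With upper-quartile factors the values were -0.0071, -0.0063, 5 and 1. With library totals Stx6 was at -0.045, Sytl1 at -0.054, Vamp4 at -0.021, the VAMP median at -0.059 and that of the further SNAREs at 0.022, with 5 members and 5 genes of the further lists at an unadjusted p under 0.05 and 1 member wholly higher. With the DESeq2 test Stx6 was at -0.0090 and Sytl1 at -0.0070, and 6 members reached that level. With the stricter filter 1 member lay wholly higher. Over these 5 settings 15.1% to 17% of all genes reached an unadjusted p under 0.05 and 3.8% to 5.73% lay wholly higher.

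With voom and quality weights 1 member passed the threshold as lower in KO, 10 reached an unadjusted p under 0.05, and of the further lists 2 genes passed and 17 reached it. Vamp8 was then at -0.083, Snap23 at 0.079, Snap25 at 0.023, Stx6 at -0.020, Stx12 at 0.033, Rims1 at 0.37, Unc13b at 0.0057, Sytl1 at -0.27 and Sytl4 at 0.28, and the medians were -0.095 for VAMPs, 0.28 for synaptotagmin-like genes and -0.0013 for the further SNAREs.

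With the GC correction Vamp2 was at -0.049, Vamp3 at 0.028, Snap23 at 0.085, Snap29 at 0.017, Stx6 at -0.011, Stx12 at 0.11, Exoc5 at 0.050, Sytl1 at -0.22 and the exocyst median at -0.065, with 1 member wholly higher and 1 wholly lower in KO. With GC and length they were Vamp2 at -0.060, Snap23 at 0.063, Stx12 at 0.066, Exoc5 at 0.19, Sytl1 at -0.25 and the exocyst median at -0.029, with 0 and 1 members.

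Without KO 1 and KO 5 Vamp8 was at -0.18, Snap23 at 0.059, Snap25 at 0.0046, Stx6 at -0.054, Stx12 at 0.0057, Stxbp2 at -0.011, Rims1 at 0.35, Unc13b at 0.057, Sytl1 at -0.31 and Sytl4 at 0.27. The medians were -0.14 for VAMPs, -0.090 for the exocyst, 0.21 for priming factors, 0.27 for synaptotagmin-like genes, 0.011 for the further SNAREs and 0.33 for the further calcium sensors, and 8 members lay wholly lower, where 2 against 4 libraries put 10.7% of all genes there.

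With each library left out in turn, 0 to 4 members and 1 to 8 genes of the further lists reached an unadjusted p under 0.05, 1 to 3 members lay wholly higher and 4 to 7 wholly lower. Of all genes in these fits 10.4% to 19.1% reached that level, 6.35% to 9.81% lay wholly higher and 6.77% to 8.94% wholly lower. No member reached that level without WT 2, and 1 without WT 3. Ranges were -0.030 to 0.035 for Stx6, -0.014 to 0.073 for Vamp4, -0.11 to 0.10 for Snap23 and -0.39 to 0.026 for Snap25. They were -0.041 to 0.017 for Stx12, -0.22 to 0.099 for Sytl1, -0.37 to 0.16 for Rims1 and -0.31 to 0.15 for Sytl4. Syt1 ran from -0.012 to 0.61, Rims2 from -0.015 to 0.51, Vamp8 from -0.090 to 0.34 and Wdr72 from -3.21 to -2.15. Medians ran from -0.094 to 0.021 for VAMPs, from 0.15 to 0.48 for synaptotagmins and from -0.010 to 0.12 for the further SNAREs. Differences in share, in percentage points, ran from -5.63 to 2.55 for Sytl1, -3.45 to 3.21 for Rims1, -2.15 to 2.55 for Syt11, -0.984 to 4.64 for Vamp8 and -1.80 to 0.647 for Stx12. Without division by length the share of Rims1 differed by 0.266 points.

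Same-numbered libraries did not deviate together (correlations of -0.143, -0.0923 and -0.121 for numbers 3, 4 and 5). WT 2 and KO 1 have no partner of the same number. In the fit with a replicate block they therefore add nothing to the genotype difference, which rests on numbers 3, 4 and 5. With the replicate block 0 members and 2 genes of the further lists reached an unadjusted p under 0.05 (6.71% of all genes), 1 gene of the table passed the threshold, Stx6 was at -0.027 and Wdr72 at -3.42 (adjusted p = 0.037). The causes of these changes were not tested.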
